A study of Mus musculus with 16 samples.

Results

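The genes for islet hormones other than insulin, together with related gut and neural peptides, were followed through both tissues of the study. The 10 genes were taken by symbol from the 24091 genes of each count table: Gcg, Sst, Ppy, Pyy, Ghrl, Gast, Cck, Penk, Npy and Ucn3. Each was present in both tables. All 10 had enough reads to be tested in fetal pancreas, and 8 in islets, where Gast and Cck were too low.

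The study deleted Tff2, the gene for trefoil factor 2, a small secreted peptide of mucosal epithelia, with a Cre recombinase under the control of Pdx1, whose promoter works in epithelial cells of the pancreatic bud. Knockout (KO) mice were Pdx1:Cre;Tff2fl/fl and controls were Tff2fl/fl, so controls also carried the floxed alleles, had no Cre, and no group with Cre alone was used here. Complete pancreata, dorsal and ventral lobes together, were taken at embryonic day 16.5 (E16.5) from 3 control and 3 KO embryos. Islets were isolated with collagenase and picked by hand from 5 control and 5 KO male mice aged 60 weeks. Each library came from 1 animal, and litters are not named in the labels.

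Each type of islet endocrine cell is defined by its main hormone. Alpha cells make glucagon, delta cells somatostatin, gamma or PP cells pancreatic polypeptide, and epsilon cells ghrelin, while peptide YY is made in several of these types and in the fetal pancreas. Gastrin and cholecystokinin are gut hormones that the embryonic pancreas can also make, proenkephalin and neuropeptide Y are neuropeptides, and urocortin 3 is released by mature mouse beta cells and prompts delta cells to release somatostatin. All are made as precursors that proteases such as those encoded by Pcsk1 and Pcsk2 cut to the active peptides.

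The promoter sequences shown are those of the 4 genes that passed the threshold as lower in KO embryos in the fetal comparison below. They cover the 250 bases before a RefSeq transcription start of each gene on GRCm38.p6, all on the minus strand, and are written 5′ to 3′. Pyy had 2 listed starts and Ghrl 4, and the start nearest the deposited 5′ end of the gene was taken. The windows are chr16:23890845-23891094 for Sst, chr11:102101320-102101569 for Ppy, chr11:102107777-102108026 for Pyy and chr6:113719912-113720161 for Ghrl. Of the 10 genes, 9 had an entry in the RefSeq promoter table, the other being Penk. Capitals mark matches, on either strand, to the cyclic AMP response element TGACGTCA or to the TATA box letters TATAAA.

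Sst: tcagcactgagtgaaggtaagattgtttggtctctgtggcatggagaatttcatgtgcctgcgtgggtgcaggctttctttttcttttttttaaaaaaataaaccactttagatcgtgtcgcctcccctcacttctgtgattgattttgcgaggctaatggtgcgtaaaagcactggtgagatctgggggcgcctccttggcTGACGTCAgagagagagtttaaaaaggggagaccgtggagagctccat
Ppy: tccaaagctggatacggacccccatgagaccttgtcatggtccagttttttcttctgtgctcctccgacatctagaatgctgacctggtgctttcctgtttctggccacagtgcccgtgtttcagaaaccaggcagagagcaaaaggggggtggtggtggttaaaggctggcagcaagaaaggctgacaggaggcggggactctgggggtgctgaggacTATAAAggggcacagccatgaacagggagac
Pyy: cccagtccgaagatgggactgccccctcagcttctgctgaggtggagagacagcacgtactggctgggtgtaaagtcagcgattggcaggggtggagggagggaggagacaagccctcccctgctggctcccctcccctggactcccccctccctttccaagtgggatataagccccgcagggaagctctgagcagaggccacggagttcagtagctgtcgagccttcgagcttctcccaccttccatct
Ghrl: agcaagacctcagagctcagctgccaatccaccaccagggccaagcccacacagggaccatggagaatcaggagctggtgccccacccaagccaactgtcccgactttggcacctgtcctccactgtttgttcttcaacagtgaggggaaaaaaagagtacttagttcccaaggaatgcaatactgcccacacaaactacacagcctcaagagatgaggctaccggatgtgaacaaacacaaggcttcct

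The element TGACGTCA stood in the Sst promoter from -48 to -41 relative to the start, and in 1 of the 9 promoters. It was present in 1.55% of 32851 promoters of the same length. TATAAA stood in the Ppy promoter from -31 to -26, and in 3 of the 9 promoters, the others being Gcg and Gast, against 12.4% of all promoters. The Pyy and Ghrl windows held neither set of letters. Thus the 4 windows shown shared no match to these letters, and the other starts of Pyy and Ghrl were not searched for them here. In the deposited coordinates (mm10) Ppy and Pyy are neighbours on chromosome 11, from 102099931 to 102101300 and from 102106676 to 102107776, both on the minus strand, with 5375 bases between them.

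The libraries held 14866194 to 22699934 reads at E16.5 and 22595400 to 32385042 reads in islets. Levels are given in CPM, the reads of a gene relative to the library size scaled by the trimmed mean of M-values (TMM) within each table. The targeted gene Tff2 had 38.7, 22.7 and 35.1 CPM in control embryos 02, 08 and 13 and 2.7, 9.96 and 1.6 CPM in KO embryos 01, 18 and 19. Tff2 was 0.977 to 4.7 CPM in control islets and 0 to 0.478 CPM in KO islets. No KO value reached a control value in either tissue. The islet libraries had 10 to 12.7% of their reads from Ins1 and Ins2, against 0.0328 to 0.101% at E16.5, while summed acinar markers were 251 to 2020 CPM in islets and 31700 to 81400 CPM at E16.5. KO embryo 18 was the only male embryo by Xist (1.56 CPM, against 1090 to 1810 in the others) and Ddx3y (134 CPM), and all islet libraries were male. Among the E16.5 pancreata, KO 01 stood apart in holding the most RNA of sympathetic and liver markers (summed levels of 1200 and 1530 CPM, against at most 656 and 514 CPM in the other pancreata) and the least of acinar markers (31700 CPM, against at least 54900 CPM).

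**Figure D1:**
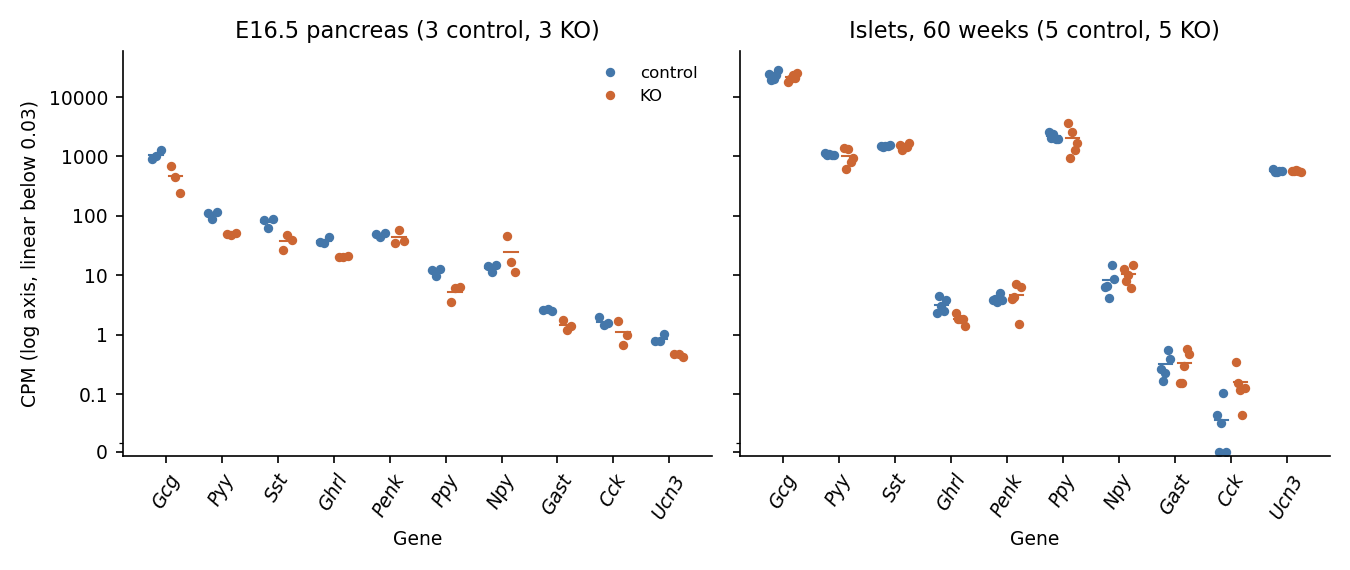
Level of each gene in every library (CPM, log axis that is linear below 0.03) in E16.5 pancreas and in islets, with control and KO libraries as points and group means as lines. In pancreata, KO points of Gcg, Pyy, Sst, Ghrl, Ppy, Gast and Ucn3 lie below all control points; in islets the groups overlap for every gene.

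The first question was what became of these genes in the fetal pancreas of embryos in which Tff2 had been deleted. The main hormones of the delta, gamma and epsilon cells and peptide YY fell by about the same amount, by 0.90 to 1.14 on the log2 scale. Glucagon was lower in every KO pancreas but missed the threshold, and the values of the neuropeptide genes Penk and Npy overlapped between the groups. Of the 10 genes, 4 fell (Sst, Ppy, Pyy and Ghrl) and 0 rose at an adjusted p of 0.05 in edgeR's quasi-likelihood test. Among all 14914 genes tested, 2.68% fell and 3.75% rose. The median log2 fold change of the 10 genes was -0.91, against 0.00 for all genes tested, and 9 of 10 fold changes were below 0. At an unadjusted p of 0.05, 7 of the 10 passed, all lower, and both DESeq2 and limma-voom called 5, the other being Gcg. Together the 10 genes took 0.134 ± 0.0202% of all reads in controls and 0.0666 ± 0.025% in KO pancreata (SD, n = 3 each). In 7 of the 10, every KO value lay below every control value, which was so for 16.1% of all genes tested.

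Gcg encodes proglucagon, the precursor of the hormone that raises blood glucose. It was the most abundant of the 10 genes, at 917, 1020 and 1280 CPM in control embryos and 681, 458 and 245 CPM in KO embryos. The KO pancreata spread over a wider range than the controls, and KO 01, the highest, was still below the lowest control. The mean was 1080 ± 189 CPM in control embryos and 461 ± 218 CPM in KO embryos (SD, n = 3 each). In edgeR the difference in Gcg was -1.22 on the log2 scale (SE 0.323, 95% interval -1.96 to -0.48), short of the threshold at an adjusted p of 0.0619. Gcg passed with DESeq2 (-1.21, adjusted p = 0.0395), with limma-voom (-1.43, adjusted p = 0.0287), and with edgeR without KO 01 (-1.61, adjusted p = 0.00839) or without KO 19 (-0.92, adjusted p = 0.0499). It passed in 9 of 21 alternatives in all: the robust fit gave an adjusted p of 0.129, and the DESeq2 call was lost without control 02, 08 or 13 or KO 18 (adjusted p = 0.148, 0.177, 0.213 and 0.145).

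Sst encodes somatostatin, which inhibits the release of both insulin and glucagon. Its level was 84.7, 61.8 and 90.3 CPM in control embryos and 26.8, 47.3 and 39.1 CPM in KO embryos. The lowest KO value of Sst was in KO 01, and the groups did not overlap. Sst fell from 78.9 ± 15.1 to 37.7 ± 10.4 CPM (SD, n = 3 each), or by 1.07 in log2 terms (SE 0.211, adjusted p = 0.0315 by edgeR). With edgeR's robust fit Sst missed the threshold (adjusted p = 0.0561), leaving 3 of the 10 genes called.

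Ppy encodes pancreatic polypeptide, a hormone of the same peptide family as peptide YY and neuropeptide Y. Its level was 12.3, 9.86 and 12.8 CPM in control embryos and 3.5, 6.03 and 6.42 CPM in KO embryos. As with Sst, KO 01 was lowest. Ppy fell from 11.6 ± 1.57 to 5.31 ± 1.59 CPM (SD, n = 3 each), or by 1.14 in log2 terms (SE 0.227, adjusted p = 0.0324 by edgeR).

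Pyy, the gene of peptide YY, was at 114, 89.2 and 116 CPM in control embryos and 49.7, 48 and 51.5 CPM in KO embryos. The KO values of Pyy lay within a narrow band, and none came near a control. Pyy fell from 106 ± 14.8 to 49.8 ± 1.75 CPM (SD, n = 3 each), or by 1.09 in log2 terms (SE 0.102, adjusted p = 0.012 by edgeR). Reads of Ppy amounted to 0.11 of those of Pyy in controls and 0.107 in KO pancreata, with KO 01 at 0.0703.

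Ghrl encodes ghrelin, the hormone of the epsilon cells, which are most frequent before birth. Its level was 36, 35.5 and 43.8 CPM in control embryos and 20.6, 20 and 20.9 CPM in KO embryos. Like Pyy, Ghrl was close to the same in the 3 KO pancreata. Ghrl fell from 38.4 ± 4.65 to 20.5 ± 0.416 CPM (SD, n = 3 each), or by 0.90 in log2 terms (SE 0.0962, adjusted p = 0.0166 by edgeR).

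The gut hormones were near the lower end of what could be tested. Gast, the gene of gastrin, was at 2.6, 2.69 and 2.47 CPM in control embryos and 1.8, 1.22 and 1.43 CPM in KO embryos. The groups did not overlap, but the difference of -0.79 (log2, SE 0.219) missed the threshold, with an adjusted p of 0.07 in edgeR. Cck, the gene of cholecystokinin, was at 1.66 ± 0.268 CPM in control embryos and 1.13 ± 0.519 CPM in KO embryos (SD, n = 3 each). The values of Cck overlapped, and the log2 fold change was -0.53 with a 95% interval of -1.32 to 0.25.

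Ucn3 was barely expressed at this age, with 17, 14 and 18 reads in controls and 9, 7 and 7 reads in KO pancreata. These came to 0.776, 0.784 and 1.04 CPM in control embryos and 0.477, 0.474 and 0.416 CPM in KO embryos, with no overlap. At -0.91 on the log2 scale, the difference in Ucn3 missed the threshold (adjusted p = 0.109 by edgeR). The SE derived from its p (0.303) is smaller than the counting noise of 49 control and 23 KO reads.

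Both neuropeptide genes missed the threshold in the TMM-scaled edgeR fit of all 3 control and 3 KO pancreata. Penk, the gene of proenkephalin, the precursor of opioid peptides, was at 49.1, 44.7 and 51 CPM in control embryos and 35.6, 58.5 and 37.6 CPM in KO embryos. KO 18 held the highest value of all and the other KO pancreata the lowest, so the groups overlapped. The log2 fold change of Penk was -0.14 (SE 0.175, edgeR adjusted p = 0.652), and without KO 18 it was -0.40 (adjusted p = 0.0422), while scaling to pan-epithelial or pan-endocrine genes turned it to 0.25 and 0.40, without passing. Scaled to the endocrine factor genes Pax6, Rfx6, Neurod1 and Scgn, Penk passed as higher (0.57, adjusted p = 0.00167), as did Npy (1.48), while Gcg (-0.58) and Pyy (-0.39) passed as lower, 4 of the 10 genes in all.

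Npy, the gene of neuropeptide Y, which sympathetic neurons release together with noradrenaline, was at 14.2, 11.3 and 14.8 CPM in control embryos and 45.5, 17.1 and 11.5 CPM in KO embryos. KO 01 held the highest value by far, and KO 19 lay within the control range. The log2 fold change of Npy was 0.88 (SE 0.448, 95% interval -0.15 to 1.92) with an edgeR adjusted p of 0.26, and without KO 01 it was 0.08. The summed level of 17 markers of sympathetic neurons and chromaffin cells was 245 to 259 CPM in control embryos and 412, 656 and 1200 CPM in KO 19, 18 and 01. Of 16 of these markers tested, 12 rose and 0 fell, among them Slc6a2, the noradrenaline transporter (0.309 ± 0.222 to 87.7 ± 71.6 CPM, SD, n = 3 each), and Dbh, the enzyme that makes noradrenaline (0.273 ± 0.118 to 52.4 ± 39.4 CPM). All 17 markers had reads in KO pancreata. The order of the 3 KO pancreata was thus the same for Npy as for these markers, and their part in the Npy values was not tested.

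**Figure D2:**
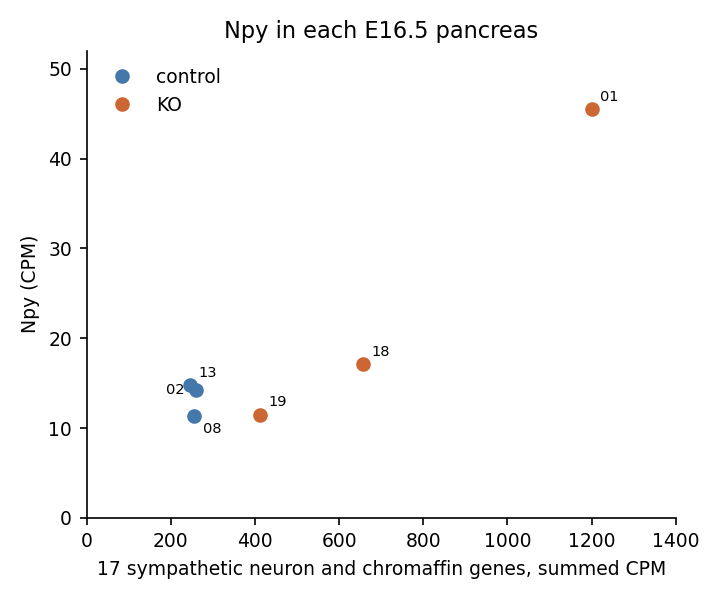
Level of Npy (CPM) against the summed level of 17 sympathetic neuron and chromaffin markers (CPM) in each E16.5 pancreas, with control and KO embryos as points labelled by animal number. Controls lie together at 245 to 259 summed CPM, and KO 01 lies alone at 1200 summed CPM and 45.5 CPM of Npy.

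The insulin genes and the other endocrine genes were read beside the 10 genes. Ins1 and Ins2 fell by 1.25 and 1.16 on the log2 scale (edgeR adjusted p = 0.0176 and 0.0198), and Iapp, the gene of the beta cell peptide amylin, by 1.00. Reads of Gcg were 1.23 ± 0.256 times those of Ins1 and Ins2 together in controls and 1.17 ± 0.501 times in KO pancreata (SD, n = 3 each). Of the CPM per kb of gene length summed over the 10 genes, Ins1 and Ins2, Gcg made up 33.1 ± 4.38% in controls and 29.8 ± 8.88% in KO pancreata. Pyy made up 7.17 ± 0.563% and 7.61 ± 2.07%, Sst 4.39 ± 0.361% and 4.82 ± 1.8%, and Ghrl 2.12 ± 0.161% and 2.55 ± 0.657% (SD, n = 3 each). These shares overlapped between the groups for Gcg, Pyy, Sst and Ghrl. The shares of Npy (0.754 to 0.857% in controls, 1.97 to 5.09% in KO pancreata) and Penk (0.912 to 1.11%, 1.4 to 2.48%) did not overlap, both being higher in KO pancreata. A share of this sum rises when Gcg, Ins1 and Ins2, its largest parts, fall. In CPM both Npy and Penk overlapped between the groups, Penk having means of 48.3 in controls and 43.9 in KO pancreata.

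The lists of other genes were described by counts over the same fit. Of 16 pan-endocrine genes tested, 7 fell and 0 rose, with a median log2 fold change of -0.60. Scg2, a granule protein, fell from 135 ± 11.3 to 71.4 ± 11.1 CPM, and the transcription factor gene Insm1 from 36.7 ± 2.94 to 23.1 ± 2.79 CPM (SD, n = 3 each). Of 11 alpha cell genes 6 fell (median -0.72 on the log2 scale), among them Pou3f4, a transcription factor of alpha cells, at -0.90. Of 7 delta cell genes 1 fell, Hhex, a transcription factor that delta cells need, at -0.46. Of 7 genes of gamma and epsilon cells 2 fell, among them Nkx2-2, a transcription factor of endocrine cells, at -0.59. When libraries were scaled to the pan-endocrine genes, Hhex turned to 0.07, and scaled to Pax6, Rfx6, Neurod1 and Scgn, so did Nkx2-2 (0.09) and Insm1 (0.02).

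The genes that make and sense these peptides were also measured at E16.5. Of 8 prohormone processing genes, 3 fell and 0 rose, with a median log2 fold change of -0.45. Pcsk2, the protease that releases glucagon from its precursor, fell from 204 ± 17.6 to 108 ± 16.4 CPM (SD, n = 3 each, -0.92 on the log2 scale). Pcsk1, which cuts proinsulin, fell by 0.61, and Cpe, the carboxypeptidase that trims the cut ends, by 0.46. Scaled to the 4 endocrine factor genes, Pcsk1 turned to 0.07 and Cpe to 0.25. Of 13 peptide receptor genes, 1 fell and 1 rose (median -0.13). Sstr3, a somatostatin receptor, fell from 7.61 ± 1.21 to 3.56 ± 0.875 CPM (SD, n = 3 each, edgeR adjusted p = 0.03). Npy2r, a receptor for neuropeptide Y and peptide YY, rose from 0.558 ± 0.191 to 2.2 ± 0.799 CPM (SD, n = 3 each, edgeR adjusted p = 0.0286). Of 12 other peptide hormone genes tested, 0 passed in edgeR (2 at an unadjusted p of 0.05), and the most abundant were Gal (13.4 ± 2.36 and 8.81 ± 6.55 CPM) and Edn3 (10.5 ± 1.2 and 12.6 ± 3.55 CPM; SD, n = 3 each).

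Summed markers of some other cell types also lay apart between the pancreata. Summed pan-endocrine levels were 1260 to 1440 CPM in control embryos and 843 to 1110 CPM in KO embryos. Summed levels of 16 pan-epithelial genes were 2920 to 3320 CPM in control embryos and 2350 to 2440 CPM in KO embryos, with 9 of 16 past the test, all lower. Acinar marker sums were 66500 to 81400 CPM in control embryos and 31700 to 63200 CPM in KO embryos, with 1 of 13 past the test. Duct marker sums were 1200 to 1230 and 775 to 948 CPM (3 of 7 fell), glia sums 89.6 to 101 and 104 to 126 CPM (3 of 7 rose, 1 fell), and enteric neuron sums 214 to 265 and 290 to 503 CPM (4 of 9 rose). The sums of endothelial, macrophage, stroma, red cell and liver markers overlapped between the groups. Endothelial sums did so only at their ends, at 798 to 1020 CPM in control embryos and 619 to 803 CPM in KO embryos. Of these markers, 2 of 7 endothelial genes fell. Of 5 liver genes 1 fell, Ttr, which is also among the 6 alpha cell genes that fell. Ttr was the only liver gene with a fold change below 0, and the median log2 fold change of the 5 was 1.5. In turn 1 of 7 macrophage and 2 of 8 stroma genes rose, and 0 of 4 red cell genes passed. In a whole organ, fewer cells of a type and less RNA per cell cannot be told apart, and the part of cell composition in the hormone values was not tested. With libraries scaled to the pan-endocrine genes, which set the median of all genes to 0.52, Gcg was at -0.79 (edgeR adjusted p = 0.0216), Pyy at -0.56 (0.0538), Ppy at -0.56 (0.084), Sst at -0.49 (0.0777), Ghrl at -0.38 (0.16) and Npy at 1.26 (1.72e-05). Thus the hormones remained below 0 on that scale, by less, and of the 10 genes only Gcg fell and only Npy rose. Scaled instead to the pan-epithelial genes, with the median of all genes at 0.38, 6 of the 10 genes passed in edgeR. Gcg (-0.85), Sst (-0.69), Ppy (-0.76), Pyy (-0.72) and Ghrl (-0.53) were lower there, and Npy (1.25) was higher.

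**Figure D3:**
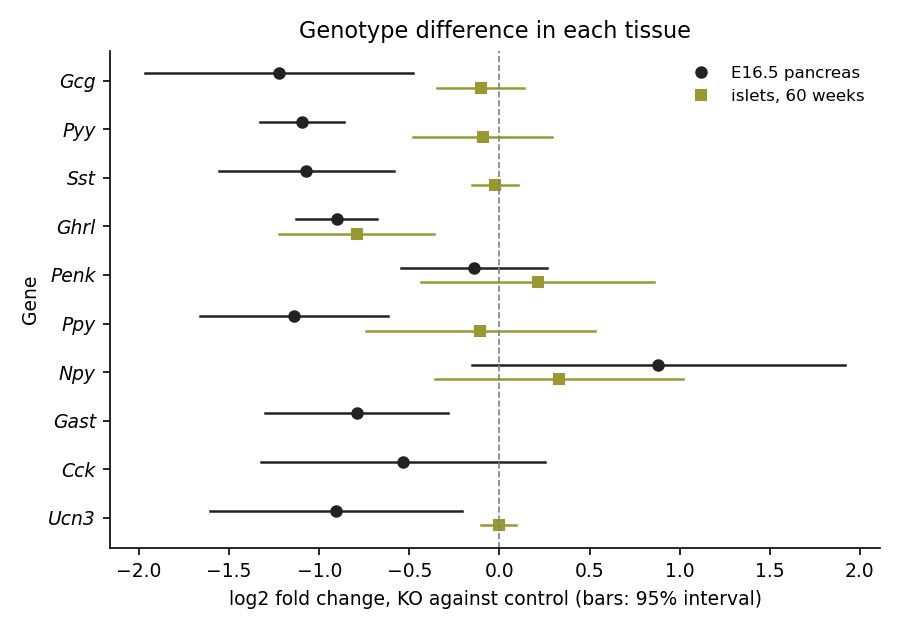
Log2 fold change of KO against control for each gene in E16.5 pancreas (circles) and in islets (squares), with 95% intervals as bars; Gast and Cck were not tested in islets. At E16.5 the intervals of 7 genes lie below 0, and in islets that of Ghrl alone does.

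Single libraries bore on the fetal calls. Without KO 01, the library that stood apart, all 4 hormones still passed in edgeR, with Sst at -0.86, Ppy at -0.90, Pyy at -1.09 and Ghrl at -0.90. Without KO 18, the male embryo, all 4 also passed, and without KO 19 Sst had an adjusted p of 0.0568. In edgeR, 0, 1 and 0 of the 10 genes passed without control 02, 08 and 13, when 0, 4 and 0 of all genes passed. With DESeq2, Sst, Ppy, Pyy and Ghrl passed in each of these 3 fits, and all 4 fold changes stayed below 0 in all 21 alternatives.

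The second question was whether the adult islets of KO mice differed in the same genes. No difference passed the test in islets for any of the 8 genes tested, and glucagon, somatostatin and urocortin 3 had narrow intervals. The deleted gene Tff2 also missed the threshold there (adjusted p = 0.0884 by edgeR). Of all 14219 genes tested, 22 passed (0.155%), 16 higher and 6 lower. At an unadjusted p of 0.05, 1 of the 8 genes (Ghrl) and 1021 of all genes passed, and DESeq2 called Ghrl. The median log2 fold change of the 8 genes was -0.06, against 0.00 for all genes tested. The 10 genes took 2.82 ± 0.381% of all reads in control and 2.68 ± 0.319% in KO islets (SD, n = 5 each).

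Gcg was at 24300, 19100, 19800, 23900 and 28400 CPM in control islets and 18000, 20300, 23300, 20500 and 25200 CPM in KO islets. The groups overlapped over most of their range. The log2 fold change was -0.10 (SE 0.112) with a 95% interval of -0.35 to 0.14. Sst was at 1510 ± 38.1 CPM in control and 1480 ± 146 CPM in KO islets (SD, n = 5 each), and its interval ran from -0.15 to 0.10 on the log2 scale. Ucn3, at 571 ± 31.8 and 569 ± 17.9 CPM (SD, n = 5 each), had the tightest interval of the genes tested, -0.10 to 0.09.

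Ppy and Pyy had similar means in both groups but spread more widely among KO mice. Ppy was at 2590, 2080, 2370, 1950 and 1950 CPM in control islets 052, 826, 829, 857 and 858, and 3720, 940, 2530, 1290 and 1690 CPM in KO islets 055, 122, 803, 812 and 845. The highest value and the 3 lowest values were all from KO mice. The mean of Ppy was 2190 ± 282 CPM in control mice and 2030 ± 1110 CPM in KO islets (SD, n = 5 each), coefficients of variation of 12.9% and 54.7%. The log2 fold change of Ppy was -0.11, with a 95% interval of -0.74 to 0.53.

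Pyy was at 1150, 1040, 1090, 1070 and 1070 CPM in the same control islets and 1370, 621, 1350, 813 and 928 CPM in the same KO islets. All 5 control values lay close together, with 2 KO libraries above every control and 3 below every control. The coefficients of variation of Pyy were 3.84% and 32.6%. The difference in spread between the genotypes was not tested. Ppy and Pyy were highest and lowest in the same KO libraries: reads of Ppy were 1.82 to 2.26 times those of Pyy in controls and 1.51 to 2.72 times in KO islets.

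**Figure D4:**
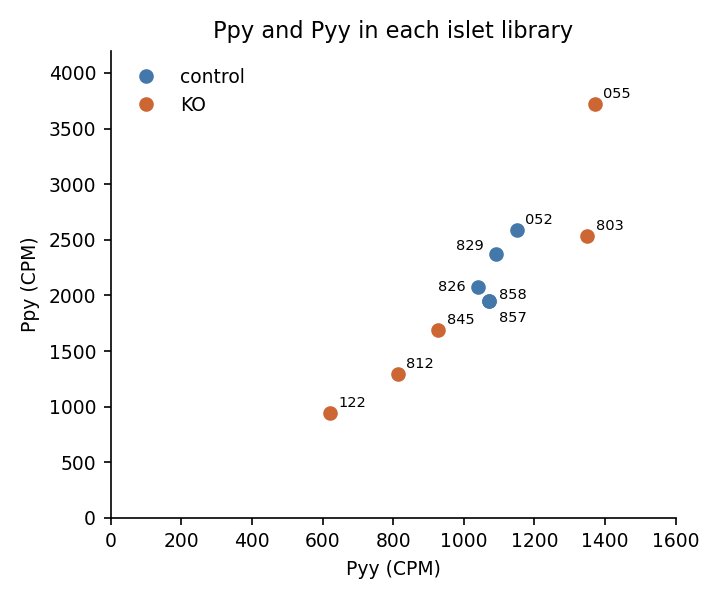
Level of Ppy against that of Pyy (both CPM) in each islet library, labelled by animal number. The 5 control libraries lie together at 1040 to 1150 CPM of Pyy, and the 5 KO libraries run from 621 CPM of Pyy with 940 CPM of Ppy (122) to 1370 CPM of Pyy with 3720 CPM of Ppy (055).

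Exocrine RNA also varied among these KO libraries. The summed level of 13 acinar markers was 513 to 1560 CPM in control mice and 842, 2020, 1220, 251 and 1190 CPM in KO islets 055, 122, 803, 812 and 845. The libraries lowest in Ppy, 122 and 812, thus held the highest and the lowest acinar sums of all islet libraries. Of 10 acinar markers tested in islets, none passed in edgeR (0 at an unadjusted p of 0.05), and the part of tissue sampling in the Ppy values was not tested.

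Ghrl was the islet gene with the lowest p of the 8. It had 52, 105, 93, 73 and 96 reads in control islets and 61, 48, 61, 41 and 33 reads in KO islets. These came to 2.31, 4.46, 3.03, 2.54 and 3.8 CPM in control mice and 2.35, 1.85, 1.82, 1.83 and 1.42 CPM in KO islets. KO 055 lay just above control 052, and all other KO values lay below every control. The mean was 3.23 ± 0.894 CPM in control mice and 1.86 ± 0.329 CPM in KO islets (SD, n = 5 each). The log2 fold change of Ghrl was -0.79 (SE 0.198, 95% interval -1.22 to -0.36) and missed the threshold, at an adjusted p of 0.228 by edgeR. DESeq2 gave an adjusted p of 0.037, and over all alternatives the value ran from 0.037 to 0.527.

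The remaining genes were low in islets. Npy was at 6.3, 6.71, 4.1, 15.2 and 8.71 CPM in control mice and 12.7, 7.98, 10.2, 6.18 and 14.7 CPM in KO islets, with wide overlap (log2 fold change 0.33, 95% interval -0.36 to 1.02). Summed sympathetic markers were 744 to 841 CPM in control and 760 to 953 CPM in KO islets. The most abundant of them there were Ddc and Isl1, and Isl1 is also among the pan-endocrine genes, so the sum does not measure neural RNA alone. Hand1, Tfap2b and Pnmt were at 0 in all 10 libraries. Control 857, the control highest in Npy, had 34 Dbh reads, against at most 8 in any other islet library. Without it the log2 fold change of Npy was 0.69 (edgeR adjusted p = 0.664), and the part of neural RNA was not tested. Penk was at 3.86, 4.03, 3.55, 4.98 and 3.92 CPM in control mice and 3.93, 4.39, 7.17, 1.52 and 6.38 CPM in KO islets (log2 fold change 0.21, 95% interval -0.43 to 0.86). The summed stroma markers were 164 to 214 CPM in control mice and 186, 131, 242, 103 and 224 CPM in the KO islets in the same order. Penk and the stroma sum had their highest value in KO 803 and their lowest in KO 812, and the part of stroma in the Penk values was not tested. Gast had 4 to 16 reads per control library and 4 to 13 per KO library. Cck had 5 reads in all 5 control libraries together and 21 in the KO libraries, and neither gene was tested.

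No member of the processing, receptor, alpha, delta, gamma and epsilon, or pan-endocrine lists passed in islets with edgeR, where 0, 3, 2, 2, 1 and 2 genes of these lists had an unadjusted p under 0.05. Pcsk2 was at 5210 ± 237 and 5200 ± 111 CPM in control and KO islets, Pcsk1 at 751 ± 61 and 723 ± 49.2 CPM, and Sstr3 at 238 ± 14.3 and 229 ± 10.6 CPM (SD, n = 5 each). For comparison, Ins2 had a log2 fold change of -0.12 (95% interval -0.25 to 0.00) and Ins1 of -0.04 in islets. Reads of Gcg were 0.197 times those of the insulin genes together in both groups of islets.

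Levels in the 2 tissues were then compared in controls, in a model over all 16 libraries. Of the 10 genes, 5 were higher in islets than in fetal pancreas and 4 were lower, where 42.4% and 43.6% of all 15823 genes passed in these directions. With so many genes past the threshold the size of each difference says more than the count. Tissue, age, sex and the share of endocrine cells changed together and cannot be told apart in it.

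The difference was largest for Ucn3, at 9.63 on the log2 scale or 791-fold higher in islets. This fold rests on 49 reads in the 3 fetal controls together. The SE derived from its p (0.0988) is smaller than the counting noise of so few reads, so the fold is only roughly known. Ppy was 225-fold higher (7.81, SE 0.47), Gcg 25.7-fold (4.69, SE 0.289), Sst 22.9-fold (4.51, SE 0.176) and Pyy 12.2-fold (3.61, SE 0.225). Ins1 and Ins2, as a measure of beta cell RNA, were 130-fold and 177-fold higher. Relative to the insulin genes, Gcg was therefore less abundant in islets: its reads went from 1.23 ± 0.256 times those of Ins1 and Ins2 at E16.5 (SD, n = 3) to 0.197 ± 0.0341 times in islets (SD, n = 5).

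Ghrl, Penk and Gast were lower in islets, by 3.31 (SE 0.157), 3.30 (SE 0.273) and 2.70 (SE 0.352) on the log2 scale. Ghrl was thus 9.94-fold lower in picked islets than in whole fetal pancreas. Cck was lower too, with 96 reads in the 3 fetal controls and 5 reads in the 5 islet controls. Npy did not pass (log2 difference -0.45, edgeR adjusted p = 0.325). These 9 calls were kept in all 21 alternatives.

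The order of the genes by CPM per kb of deposited gene length also differed between the tissues. At E16.5 the control means were 991 for Gcg, 215 for Pyy, 132 for Sst, 63.3 for Ghrl, 30.4 for Penk, 24.5 for Ppy, 24 for Npy, 5.65 for Gast, 1.95 for Cck and 0.586 for Ucn3. Only the neighbours Ppy and Npy overlapped in range in that order. In control islets the means were 21300 for Gcg, 4600 for Ppy, 2520 for Sst, 2190 for Pyy, 387 for Ucn3, 14.6 for Npy, 5.32 for Ghrl, 2.56 for Penk, 0.706 for Gast and 0.0427 for Cck. Npy and Ghrl overlapped in range there. Ppy had rank 6 at E16.5 and rank 2 in islets, and Ghrl rank 4 and rank 7. In KO islets the ranges of Ppy, Sst and Pyy overlapped, so that the order of Ppy and Sst, seen in 5 of 5 control libraries, held in 4 of 5 KO libraries.

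**Figure D5:**
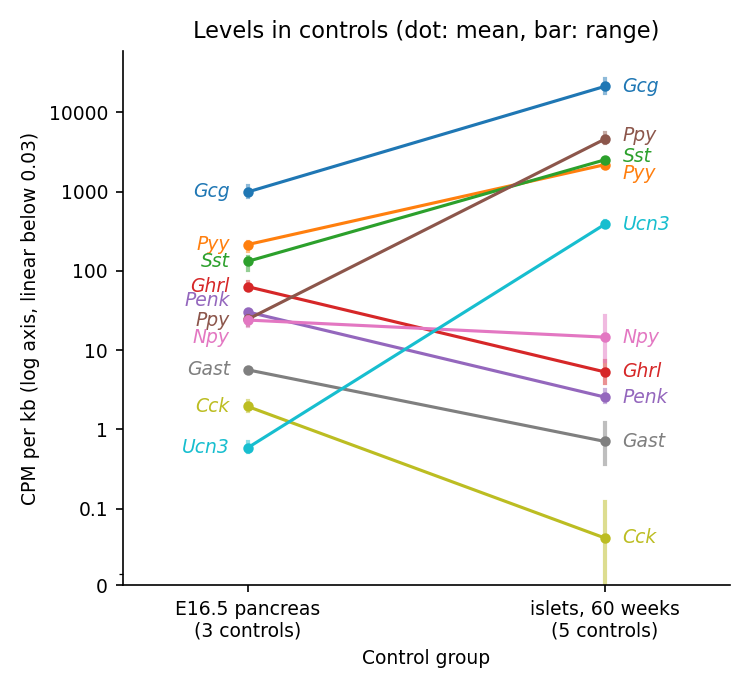
Level of each gene in control E16.5 pancreas (3 embryos) and control islets (5 mice), in CPM per kb on a log axis that is linear below 0.03, with dots for means and bars for ranges. The lines of Ucn3 and Ppy rise most steeply, and those of Ghrl, Penk, Gast and Cck run downward.

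The same 16-library model tested whether the genotype difference itself differed between the tissues. It uses the same libraries as the separate comparisons, so its values are not independent of them. The model pools the spread of each gene over both tissues. Its SE for Sst (0.203) was below that of the E16.5 fit alone (0.211). Of the 10 genes 3 passed, Gcg, Sst and Pyy, where 7.19% of all genes passed, and 5 passed an unadjusted p of 0.05. The islet difference minus the E16.5 difference was 1.06 for Sst on the log2 scale (SE 0.203, edgeR adjusted p = 0.00637), 1.13 for Gcg (SE 0.324, 0.0446) and 1.02 for Pyy (SE 0.271, 0.0319). Sst passed in all 21 alternatives, Pyy in 12 and Gcg in 8. In the separate edgeR fits Gcg passed in neither tissue.

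Ppy had a difference of the same size, 1.05, with an SE of 0.503 and an adjusted p of 0.232. For Ghrl the difference between the tissues was 0.13 (SE 0.241, 95% interval -0.38 to 0.64, adjusted p = 0.817). Ghrl was the hormone whose fold change was below 0 by a similar amount in both tissues, at -0.90 and -0.79, and the interval still allows a difference of up to 0.64. Ucn3 (0.92, adjusted p = 0.0821), Cck (2.49, 0.0761), Gast (0.80, 0.421), Penk (0.38, 0.633) and Npy (-0.53, 0.66) did not pass.

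The genes that varied most like each hormone from islet to islet were sought among 10583 genes of at least 5 CPM. Likeness was Pearson's r of log2 CPM over the 10 islet libraries, each gene centred on its genotype group, and is a description. The gene most like Ppy was Pyy (r = 0.96), and those most like Pyy were Notch3 (0.969) and Ppy. No other pair of the 10 genes exceeded 0.7 in islets. For Gcg the nearest genes were Mkrn1 (0.946), Ncs1 (0.944) and Ubald2 (0.942), for Sst Lyz2 (0.911), Dpp6 (0.896) and Prdm16 (0.894), and for Ghrl Zfp62 (0.893). For Penk they were C7 (0.97), Abca8a (0.962) and Ccdc80 (0.952), for Npy Ass1 (0.968), Rab3c (0.968) and Dlg2 (0.952), and for Ucn3 Calm3 (0.956) and Fth1 (0.955). These libraries share their tissue, table and scaling.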

How the data were processed

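Polyadenylated RNA was sequenced from 6 E16.5 pancreata and 10 islet preparations of mice. Per the labels' protocols, RNA was extracted with the RNeasy Micro kit and libraries were made with the Kapa mRNA HyperPrep kit. What the authors deposited are unnormalised read counts for each gene. Per the submitters' processing notes the build was mm10, and the tools included STAR 2.6.0, HTSeq 0.11.1, Trimmomatic and edgeR. The roles of these tools, the annotation version and the use of strand were not given in the sources used here. In the tables the entry Mir684-1 spans Gcg, and Mir5098 spans Ppy, Pyy and Gast. Both entries are on the plus strand, as is Gast, while Gcg, Ppy and Pyy are on the minus strand. The division of reads between these entries and the genes is therefore uncertain. Groups came from genotype and stage in the labels. All libraries of a group differed from each other by more than sampling noise (lowest chi-square per degree of freedom 4.9 at E16.5 and 6.28 in islets).

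Within each tissue, counts passing filterByExpr were scaled by TMM and tested in edgeR 4.0.16 (R 4.3.3) by its quasi-likelihood F test. P-values were adjusted by Benjamini and Hochberg over all genes tested, with a threshold of 0.05. A model over 16 libraries, with a mean per group, gave the tissue contrast and the interaction. SE is the one that gives the reported p on the t distribution of the fit, and intervals are at 95%. For genes of few reads, such as Ucn3 at E16.5, this SE and its interval can be narrower than counting noise allows. The depth stated in the report limits low genes such as Ucn3 at E16.5 and Cck in islets. P-values set each difference in means against the spread between the sampled animals, as estimated with the help of other genes. Alternatives covered scaling, filters, DESeq2 1.42.0, limma-voom (limma 3.58.1) with quality weights, a robust fit and each replicate left out. Scaling to Pax6, Rfx6, Neurod1 and Scgn and DESeq2 with a replicate left out were chosen after seeing the data. The fits were tested on simulated data. The 10 genes and the 23 gene lists were chosen with earlier results of these data known. Genes named from a list are at most 3 that passed, by lowest p, or else the 2 most abundant, and likeness is given for at most 3 genes per member, and Sstr3 and Pcsk1 in islets were named to follow their fetal values. A few genes that this rule would name are not reported here.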

Additional observations from a re-analysis of the deposited data

Results flagged for a closer look

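For 3 genes the genotype difference itself differed between the tissues in edgeR's 16-library model. That model pools the spread over both tissues, and Gcg passed in neither tissue in the separate fits. The islet log2 fold change minus the E16.5 log2 fold change was 1.13 for Gcg, 1.06 for Sst and 1.02 for Pyy, with the islet value nearer to 0 in each. Age, sex and the kind of tissue differ between the comparisons and cannot be told apart. In 20 groups of 5 islet libraries checked for a single value far from the others, 0 were found.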

How the results depend on the processing

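Of 210 values of the 10 genes at E16.5 (21 alternatives), 171 kept their direction and side of the threshold, 20 lost the threshold, 14 gained it and 5 turned direction. In islets these numbers were 135, 0, 1 and 8, for the tissue contrast 210, 0, 0 and 0, and for the interaction 185, 22, 2 and 1. No paired analysis was possible because the groups share no animal number. Genes called at E16.5 numbered 959 with edgeR and 1550 with DESeq2. They numbered 9551, of which 9501 were higher, when scaled to pan-epithelial genes, 5020 (5007 higher) with pan-endocrine genes, and 12842 (12827 higher) with Pax6, Rfx6, Neurod1 and Scgn. These scalings moved the median of all genes to 0.38, 0.52 and 0.69 (log2), and 6, 2 and 4 of the 10 genes passed under them. Under pan-epithelial scaling Penk turned to 0.245. Under pan-endocrine scaling the log2 fold changes that turned were 0.402 for Penk, 0.0708 for Cpe, 0.0119 for Ttr and 0.0706 for Hhex. Cpe is itself among the pan-endocrine genes. Scaled to the 4 endocrine factors, Penk was at 0.573, Cck 0.109, Pcsk1 0.0745, Cpe 0.245, Gal 0.13, Ttr 0.189, Hhex 0.24, Nkx2-2 0.0876 and Insm1 0.0152. These turns came with scalings that moved the median of all genes up, and the part of cell composition in them was not tested.

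With each replicate left out, genes called at E16.5 ran from 0 to 1035 with edgeR, where each fit without a control gave at most 4, and from 619 (without control 02) to 1612 (without KO 18) with DESeq2. The 10 genes had 0 to 5 calls with edgeR and 4 to 5 with DESeq2, in which Penk turned to 0.000156 without KO 01. In islets 22 genes passed with edgeR, 112 with DESeq2, 13 under pan-endocrine scaling and 5 to 26 with a replicate left out. Of the 10 genes, DESeq2 called 1. With a replicate left out, log2 fold changes in islets ran from -0.0774 to 0.0187 for Sst, -0.441 to 0.076 for Ppy, -0.225 to 0.0403 for Pyy, -0.00106 to 0.429 for Penk, -0.0208 to 0.0312 for Ucn3 and -0.078 to 0.0155 for Ins1. Ucn3 was at 0.0187 with library totals. The interaction called 1 of the 10 genes with library totals and 1 to 3 with a replicate left out, with Npy from -0.873 to 0.267. The cause was not tested.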
